A study of Danio rerio with 6 samples.

Results

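Collagens and extracellular matrix genes are described here in the brains of male zebrafish that met lead as embryos and were sampled as aged adults. Members were array targets whose zebrafish symbol, or homologue name where the symbol was blank, began with the name of a collagen, laminin, fibrillin, fibronectin, fibulin, nidogen, perlecan, small leucine-rich proteoglycan, SPARC, tenascin, hyaluronan-binding proteoglycan or link protein, matrix metalloproteinase, its inhibitor, periostin or lysyl oxidase. The rule found 152 of the 38489 targets on the array. Of these, 136 bore the name of a matrix gene, under 66 different names, and 53 of them were collagen targets of 24 names. The other 16 matched by their letters alone: 14 were trinucleotide repeat containing (TNRC) genes and 2 were COL4A3BP, a ceramide transfer protein, and they are kept apart below.

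The study's males were AB strain fish reared at 28 °C, with 1 whole brain per array at 12 months of age. Controls, 3 fish, were kept as embryos at 0 ppb lead, and the lead group, 3 fish, at 100 ppb as lead acetate from under 2 to 72 hours after fertilization, after which both groups lived in water with no added lead. RNA was measured on 1-colour arrays, 1 Cy3-labelled sample each, as the log2 of a normalized intensity, so the question is whether brain RNA of old fish still differs by what the embryo met. Females of the study were not analysed here, and the labels do not say which fish were tank mates, so p-values cover the spread among these 6 animals only.

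The extracellular matrix is the protein and sugar scaffold outside cells. In the brain, fibrillar collagens are mostly found in the meninges and around larger vessels, laminins, nidogens and type IV collagen form the basement membranes of vessels and of the brain surface, and the tissue between neurons is a softer lattice of hyaluronan held by versican, neurocan, link proteins and tenascins. Metalloproteinases cut these proteins, their inhibitors (TIMPs) hold them back, and lysyl oxidases cross-link collagen and elastin.

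The arrays were alike in overall level, with medians between 10.96 and 11.02. Random-sequence probes, which match no gene and serve as a background, had 95th percentiles between 10.41 and 10.91. Their means lay between 8.24 and 8.44. These are values of single probes, whereas a target value summarizes several. A target under this limit is therefore not shown to be silent. Of the 136 matrix targets, 44 (32.4%) lay above that limit on all 6 arrays, against 47.5% of all targets, and 69 lay above it on none. Of the neuron markers 14 of 14 measured lay above it on every array, which is what the brain label calls for. Each marker was read by its gene's brightest target, which favours this count, so it does not compare with the shares above. Control arrays were images 1 to 3 of the scan and lead arrays images 4 to 6, so image position and exposure cannot be told apart. In whole brain, fewer cells of a type and less RNA per cell also cannot be told apart.

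No matrix target passed the test. In limma's moderated test, fitted on all targets with Benjamini-Hochberg adjustment, 0 members and 0.0% of all targets had an adjusted p under 0.05, and the smallest adjusted p was 0.568. At an unadjusted p under 0.05, 2 of the 152 members were higher in lead-exposed brains (1.32%, against 4.19% of all targets) and 5 were lower (3.29%, against 3.0% of all targets). These shares were below or near the background, and all 7 members were matrix targets. With a fold of at least 1.5 as well, 2 were higher (1.32%, against 1.59% of all targets) and 2 lower (1.32%, against 1.01%). Together the 7 came to 4.61% of the members, against 7.19% of all targets. Every lead array lay above or below every control array for 13 members, which is 8.55%, against 13.1% of all targets. Of these, 4 were higher (2.63%, against 7.01%) and 9 lower (5.92%, against 6.09%). For a single target, the smallest p that an exact permutation test of 3 arrays against 3 can give is 0.1.

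Most differences were small and below 0. Of the 136 matrix targets, 88 (64.7%) had a lower mean in lead-exposed brains, and 48 (35.3%) a higher one, against 50.8% and 49.2% of all targets. Their median log2 difference (lead-exposed minus control) was −0.09, against 0.00 over all targets. Over the 152 members the median was also −0.09, and −0.05 without lead 1. Single targets ranged from −0.91 to 1.08. The median standard deviation of a single target within groups was 0.27 for matrix targets and 0.22 over all targets. Of their 400 single probes, 247 were lower and 153 higher. Of the 36 genes with several targets, 13 had every target lower, 8 had every target higher and 15 had targets in both directions. Targets of 1 gene often overlap on the genome, so they are repeat readings rather than separate genes.

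**Figure D1:**
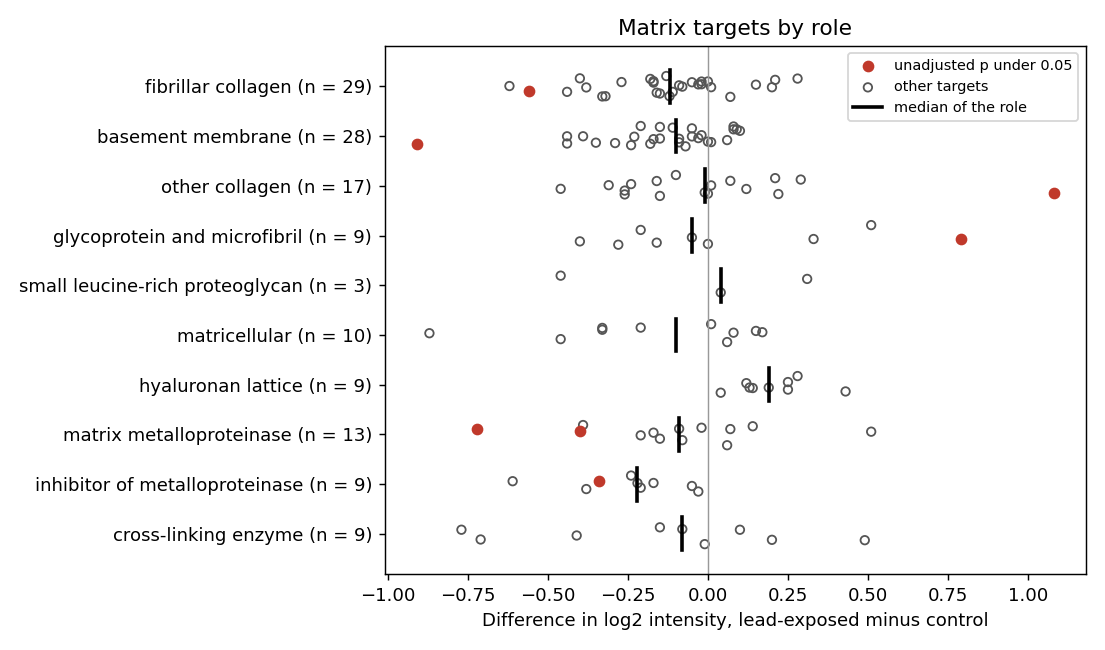
Difference in log2 intensity (lead-exposed minus control, x axis) of each matrix target, by role (y axis, with the number of targets). Filled points are the 7 targets at an unadjusted p under 0.05, open points the others, and bars the median of each role. The TIMP targets all lie below 0 and the hyaluronan lattice targets all above 0, while the other roles span it.

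Fibrillar collagens, the rope-forming types I, II, III, V and XI, were lower for 22 of 29 targets, with a median difference of −0.12. Without lead 3 the median was −0.07, with 18 of 29 lower, and without lead 1 the count was 17 of 29. The 11 targets named for COL5A1, a chain that starts and thins type I fibrils, were all lower, from −0.62 to −0.02 (median −0.32). Only 3 of them lay above the random-sequence range on every array, and 7 on none. With targets in that range left out, the 3 that remained had a median of −0.17. Several of the 11 also carry the name COL11A1, among them a reverse-strand target. Of the 11, 5 overlap or adjoin each other on chromosome 21 near 16 Mb (Zv7), with a median of −0.44. None of these 5 lay above the random-sequence range on every array. At one of them, named COL5A1 and COL11A1 (chr21:16077024-16078225), log2 values were 7.72, 7.59 and 8.19 in controls and 7.16, 7.60 and 7.07 in lead-exposed brains. Lead arrays 1 and 3 lay below every control, and lead 2 lay among the controls. The difference was −0.56 (SE 0.22, unadjusted p = 0.0383, adjusted p = 0.680), and all its values lay within the range of random-sequence probes. Without lead 2 the unadjusted p was 0.0147, without control 2 it also stayed under 0.05, and without any other array it lay above it, up to 0.116. A COL5A1 target elsewhere on the chromosome (chr21:6944725-7081899), above that range on every array, read 11.63, 11.51 and 11.47 in controls and 11.21, 11.44 and 11.01 in lead-exposed brains. There every lead array was below every control, by 0.32 on average (SE 0.15, unadjusted p = 0.0736, adjusted p = 0.722). Another COL5A1 target with the same coordinates, also above that range on every array, differed by only −0.08 (SE 0.15). Its groups overlapped, so readings of this stretch did not match each other. Of the 11 COL5A1 targets, 9 were lower without lead 2 or without lead 3 and 10 when arrays were centred on the random-sequence probes. Their median was −0.16 without control 2, −0.21 without lead 3 and −0.43 without lead 2, where the chromosome 21 group had a median of −0.69.

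Type I collagen, the chief protein of meningeal and vascular fibrils, had no target at an unadjusted p under 0.05. The target of col1a1 (current symbol col1a1a, chr3:15928697-15945466) read 11.84, 11.19 and 10.59 in controls and 11.43, 11.36 and 9.69 in lead-exposed brains. Lead 3 was the lowest of the 6, and the groups overlapped. The difference was −0.38 (SE 0.53, adjusted p = 0.897), and 2 further targets, COL1A1 on chromosome 3 and col1a2 on chromosome 19, differed by −0.27 and −0.03. A COL1A2 target on chromosome 21 differed by 0.01, and its reverse-strand partner by −0.17 (SE 0.12), with every lead array below every control. This pair lay within the random-sequence range on every array. Of the 6 type I targets 5 were lower, with a median of −0.15, but without lead 3 the count was 3 of 6 and the median 0.01, and without control 1 the median was −0.08. The target of col2a1a, the cartilage collagen, differed by −0.11, and the 2 targets named COL2A1 (2 of 2) by 0.28 and −0.12. The type III target COL3A1 differed by 0.07, and col1a3 (current symbol col1a1b) by −0.13.

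**Figure D2:**
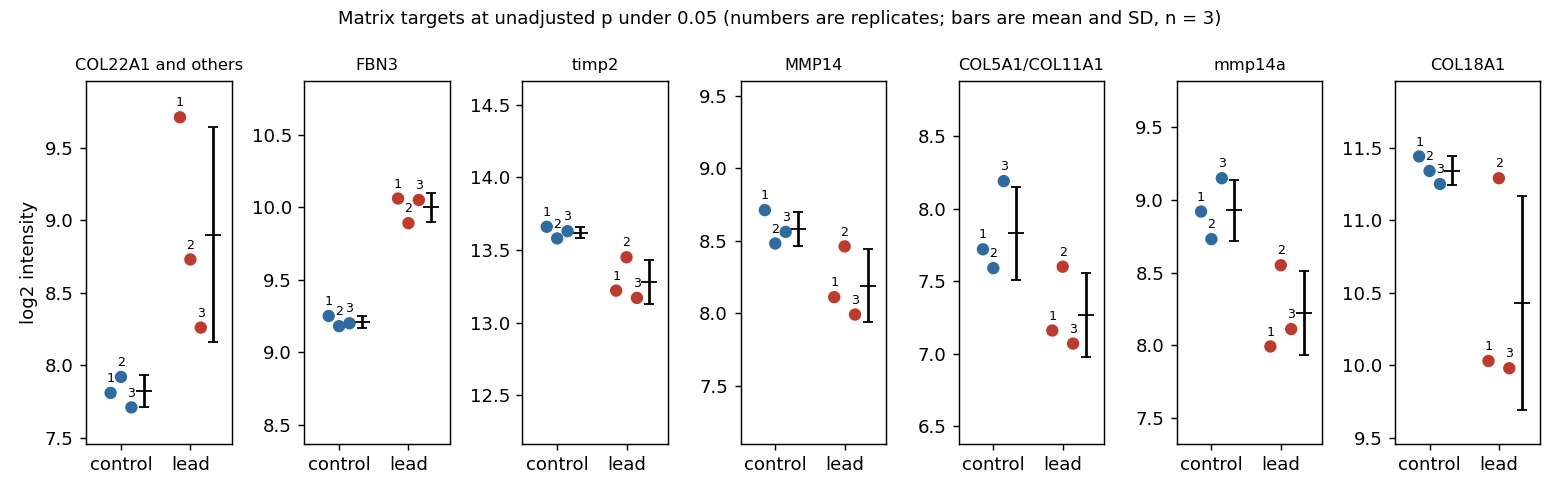
Log2 intensity (y axis) of the 7 matrix targets at an unadjusted p under 0.05 in control and lead-exposed brains. Points are single fish with their replicate number, bars the mean and SD (n = 3), and every panel spans the same height on the log2 scale. For each of the 5 targets with lower values, lead 2 is the highest of the lead-exposed fish.

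Basement membrane genes were lower for 22 of 28 targets, with a median of −0.10. Without lead 1 the count was 18 of 28 and the median −0.07, and without control 2 they were 19 of 28 and −0.08. COL18A1, whose tail is cut to give endostatin, an inhibitor of vessel growth, had the lowest difference of all matrix targets. At chr9:35929262-35936327 its values were 11.44, 11.34 and 11.25 in controls and 10.03, 11.29 and 9.98 in lead-exposed brains. Lead 1 and 3 were more than 1 log2 unit below every control, and lead 2 was within the control range. The difference was −0.91 (SE 0.35, unadjusted p = 0.0347, adjusted p = 0.675). Without lead 2 it was −1.34, with an unadjusted p of 6.74e-05, and without any other single array the unadjusted p lay above 0.05, up to 0.112.

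Laminins, the cross-shaped trimers that seed basement membranes, were lower for 12 of 15 targets, with a median of −0.09 (−0.06 without lead 2). The 2 targets of lama5, the alpha chain of mature vessel and surface membranes, had the lowest laminin differences. The one named LAMA5 (chr23:7213222-7230472) read 11.67, 11.61 and 11.82 in controls and 10.97, 11.65 and 11.33 in lead-exposed brains. Lead 2 lay between the controls, and the other lead arrays lay below them. The difference was −0.39 (SE 0.19, adjusted p = 0.727), and the other target, on the same chromosome, differed by −0.44 (SE 0.25). The 4 targets of lama4, the alpha chain typical of endothelium, lay between −0.18 and 0.08, and 2 more whose homologue names also include FYN and TUBE1 differed by −0.07 and −0.05. Beta chain targets (lamb1, lamb4) lay between −0.29 and 0.09. The gamma chain targets went apart, lamc1 at 0.10 and LAMC1 at −0.35, both on chromosome 2.

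The linker proteins and the network collagen of the same membranes gave small differences. All 5 nidogen targets were lower (−0.24 to −0.02, median −0.15), but 3 of 5 were without control 2 or without lead 2, and 4 of 5 when arrays were centred on the random-sequence probes. Their median was −0.06 without control 1 and −0.26 without control 3. Only 1 of the 5 nidogen targets lay above the random-sequence range on every array, and 3 on none. Of the 5 type IV collagen targets 3 were lower, with a median of −0.05, and lead 2 was the highest lead-exposed array for all 5. Without lead 2 the type IV median was −0.32, and without lead 1 it was 0.07. No type IV target lay above the random-sequence range on every array, and 3 lay above it on none. No target had col4a1 or col4a2 as its symbol or first homologue name, but 2 of the 5, led by COL4A3, also list COL4A1. The perlecan target (HSPG2) differed by 0.06, and COL15A1, a relative of COL18A1, by −0.23 (SE 0.19).

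Other collagens were evenly split, with 8 of 17 targets higher and a median of −0.01. A target on chromosome 3 (chr3:59037518-59041143) whose homologue names start with COL22A1, and also list other collagens and the scavenger receptor MARCO, had the highest difference of all matrix targets. Its values were 7.81, 7.92 and 7.71 in controls and 9.71, 8.73 and 8.26 in lead-exposed brains. Every lead array lay above every control, and lead 1 stood well above the others. The difference was 1.08 (SE 0.35, unadjusted p = 0.0171, adjusted p = 0.618). All 6 values lay within the range of random-sequence probes, and the mixed names do not settle which gene the target reads. COL12A1 and COL14A1 coat the surface of fibrils. The 3 COL12A1 targets differed by −0.46, 0.01 and 0.07, and the 2 COL14A1 targets by −0.31 and 0.21. Type VI collagen, which forms beaded filaments around cells, gave −0.10 and 0.12 for col6a2 and −0.26 for COL6A3.

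Glycoproteins and microfibrils had 4 of 9 targets higher. FBN3, a fibrillin of the microfibrils that store growth factors, had the smallest p of all members. Its target at chr22:1957942-2009835 read 9.25, 9.18 and 9.20 in controls and 10.06, 9.89 and 10.05 in lead-exposed brains. The groups were tight and did not overlap, with SDs of 0.04 and 0.10 (n = 3). The difference was 0.79 (SE 0.12, unadjusted p = 0.000326, adjusted p = 0.568), and it stayed at an unadjusted p under 0.05 in each of 14 alternative fits. All 3 of its probes were higher. The second FBN3 target lies within the same stretch (chr22:1960948-1997674) and read 9.51, 9.62 and 9.56 in controls and 9.70, 9.38 and 9.62 in lead-exposed brains, a difference of 0.00 (SE 0.14). Readings of this gene therefore did not match each other, and both lay within the range of random-sequence probes on every array. The fibronectin targets, for the adhesive protein that collects around vessels, gave 0.51 (SE 0.24) for FN1, −0.21 for fn1 (current symbol fn1a) and 0.33 for fn1b. The fibulins fbln2 and FBLN1 gave −0.28, −0.05 and −0.40.

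Small leucine-rich proteoglycans, which bind collagen fibrils and growth factors, were read by 3 targets. Decorin (dcn), a marker of fibroblasts, read 13.78, 13.60 and 13.85 in controls and 13.94, 13.71 and 13.69 in lead-exposed brains. The groups overlapped almost wholly, with a difference of 0.04 (SE 0.14, adjusted p = 0.966). The biglycan targets differed by 0.31 for BGN and −0.46 for bgn, with adjusted p of 0.806 and 0.728.

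Matricellular proteins regulate how cells meet the matrix, and their targets split evenly, 5 higher and 5 lower. Periostin (POSTN), a protein of collagen-rich tissue, had the lowest difference of the role, with both of its targets within the random-sequence range on every array. Its target at chr15:25152205-25180582 read 10.09, 9.41 and 9.65 in controls and 8.53, 9.91 and 8.08 in lead-exposed brains. Lead 2 was above 2 of the controls, and the other lead arrays were below all of them. The difference was −0.87 (SE 0.46, adjusted p = 0.740), and −1.41 without lead 2, and the second POSTN target gave −0.33 (SE 0.33). The secreted collagen-binding protein sparc, at chr14:17475394-17490755, read 14.05, 13.88 and 13.68 in controls and 13.54, 14.04 and 13.05 in lead-exposed brains. It showed the same order of lead arrays, lead 2 highest and lead 3 lowest, with a difference of −0.33 (SE 0.26, adjusted p = 0.821). Its other 3 targets, which overlap this stretch, differed by −0.46, 0.01 and 0.08. Unlike the first, these 3 lay within the random-sequence range on every array. Tenascin R (tnr), made by glia and found in nets around neurons, differed by 0.15 (SE 0.16), and the 2 tnc targets (current symbol tncb) by −0.21 and 0.17.

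The hyaluronan lattice was the one role in which every target was higher, 9 of 9 over 4 genes, with a median of 0.19. This role leaves out the tenascins, which were placed with the matricellular proteins and did not share a direction (tnr 0.15, tnc −0.21 and 0.17). None had an unadjusted p under 0.05, and in none did the groups separate. Of the 9 targets, 5 lay above the random-sequence range on every array, all of them vcanb or ncan, and 3 on none. The vcanb target on chromosome 17 (chr17:9363431-9380178), for the lectican versican, had the highest difference. It read 11.81, 11.79 and 13.29 in controls and 13.13, 11.84 and 13.23 in lead-exposed brains. Control 3 lay with lead 1 and 3, and lead 2 with controls 1 and 2. The difference was 0.43 (SE 0.52, adjusted p = 0.879), and the 5 versican targets ranged from 0.13 to 0.43. Neurocan (ncan, chr22:16928476-17017133), a brain lectican, read 12.73, 12.57 and 13.37 in controls and 12.94, 12.54 and 13.62 in lead-exposed brains. The fish with number 3 were highest in both groups, and the difference was 0.14 (SE 0.32). The second ncan target gave 0.19, and without lead 3 both were lower, with a median of −0.11. The link protein gene hapln1a, whose product clamps lecticans to hyaluronan, gave 0.12 and 0.04. Over the lattice the median SD within groups was 0.39, larger than every difference but one. Leaving out control 3, lead 2 or lead 3 left 7 of 9 higher, and the median of the role went from 0.11 without control 2 to 0.38 without control 3. When targets were instead averaged from the deposited single-probe values, 8 of 9 were higher.

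**Figure D3:**
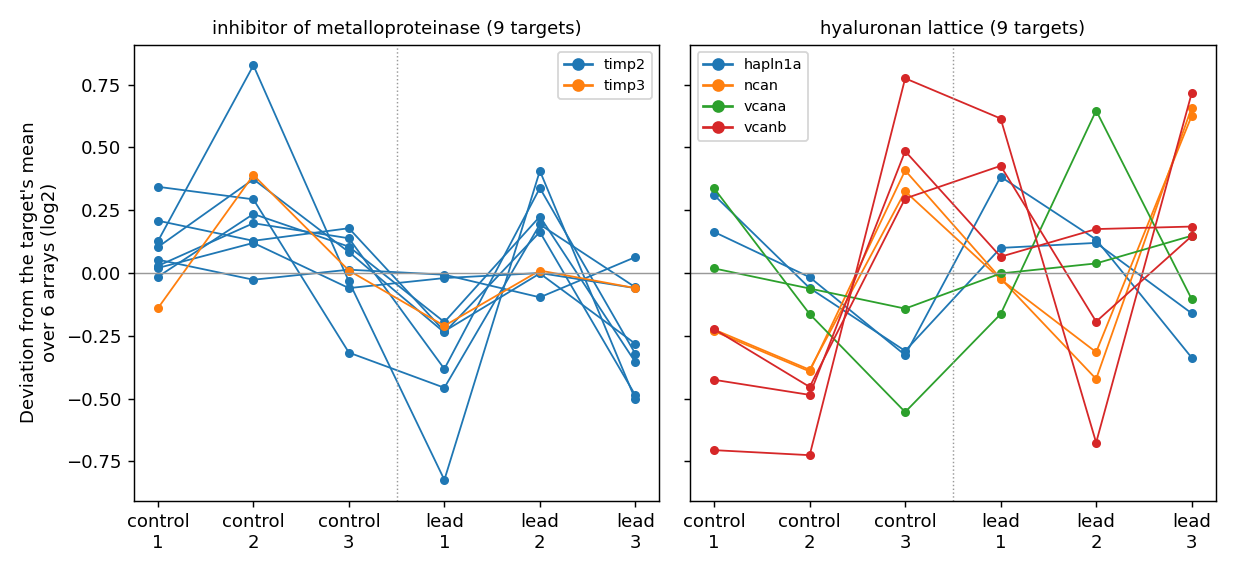
Deviation of each target from its own mean over the 6 arrays (y axis, log2) on each array (x axis), for the 9 TIMP targets (left) and the 9 hyaluronan lattice targets (right), coloured by gene. Most TIMP lines are low in lead 1 and 3 and high in lead 2, and the ncan and vcanb lines are high in control 3 and low in controls 1 and 2.

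Matrix metalloproteinases had 9 of 13 targets lower, with a median of −0.09, but 6 of 13 and a median of 0.01 without control 3, and medians of −0.03 without lead 1 and −0.05 without lead 3. The 4 targets named for MMP14, the membrane-bound enzyme that cuts collagen and activates pro-MMP2, were all lower, from −0.72 to −0.08, and 3 of 4 were without control 3 or without lead 1. The mmp14a target (chr7:10490493-10515872) read 8.92, 8.73 and 9.15 in controls and 7.99, 8.55 and 8.11 in lead-exposed brains. No lead array reached any control, and lead 2 came closest. The difference was −0.72 (SE 0.19, unadjusted p = 0.00769, adjusted p = 0.592), and leaving out any 1 array kept the unadjusted p under 0.05, at most 0.029. Among the 4 arrays whose image names share a prefix it was −0.61, with an unadjusted p of 0.0684. This was the one member in the authors' deposited table of 180 altered probes, 90 of them higher and 90 lower. There MMP14 has a log2 ratio of −0.72 and a p-value of 0.026. The smallest absolute log2 ratio in that table is 0.585 and the largest p-value 0.0498. The FBN3, COL22A1-named and COL18A1 targets, at an unadjusted p under 0.05 and a fold of at least 1.5 here, are not in it. The reason is not known, as the authors' test is not given.

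A separate MMP14 target, with no coordinates, read 8.71, 8.48 and 8.56 in controls and 8.11, 8.46 and 7.99 in lead-exposed brains. Its groups did not overlap either, with lead 2 just under control 2. The difference was −0.40 (SE 0.16, unadjusted p = 0.0449, adjusted p = 0.683), and without lead 2 the unadjusted p was 0.00966, while without any other array it lay above 0.05, up to 0.137. Both this target and mmp14a stayed within the range of random-sequence probes on every array. The MMP14 target above that range, which also carries the names MMP15 and MMP16, differed by −0.08 (SE 0.17). The gelatinase mmp2 read 13.70, 13.76 and 13.56 in controls and 13.43, 13.70 and 12.72 in lead-exposed brains. Lead 3 was low and lead 2 level with the controls, giving −0.39 (SE 0.25, adjusted p = 0.790). The gelatinase mmp9, known from wounds and inflammation, differed by 0.07 (SE 0.16). MMP24 and MMP16, membrane-bound enzymes found in brain, shared a target at 0.51 (SE 0.37), and MMP16 (1 of 2) gave 0.06.

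Inhibitors of metalloproteinases were the role in which every target was lower, 9 of 9 over timp2 and TIMP3, with a median of −0.22. TIMP2 both inhibits metalloproteinases and takes part in the activation of MMP2 by MMP14. The timp2 target on chromosome 12 (chr12:23773229-23809897) read 13.66, 13.58 and 13.63 in controls and 13.22, 13.45 and 13.17 in lead-exposed brains. Every lead array lay below every control, and all 6 lay above the random-sequence range. The difference was −0.34 (SE 0.13, unadjusted p = 0.033, adjusted p = 0.674). Without lead 2 the unadjusted p was 0.0148, and without any other array it lay above 0.05, up to 0.0973.

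The other 7 TIMP2 targets differed by −0.61 to −0.03, and 5 of them lie close together on chromosome 3, where several overlap. One of these (chr3:47704372-47723633) read 13.03, 13.30 and 13.01 in controls and 12.69, 13.09 and 12.44 in lead-exposed brains, a difference of −0.38 (SE 0.20, adjusted p = 0.739). Lead 2 lay within the controls and the other lead arrays below them. Another TIMP2 target with the same coordinates lay within the random-sequence range on every array and differed by −0.03 (SE 0.12). TIMP2 (1 of 3), also on chromosome 12, read 15.14, 15.24 and 15.06 in controls and 15.10, 15.12 and 15.06 in lead-exposed brains. It was nearly level, at −0.05 (SE 0.12, adjusted p = 0.941), so the targets named TIMP2 did not read alike. Whether the targets on chromosome 12 are separate loci is not known. TIMP3, an inhibitor that stays bound to matrix, differed by −0.17 (SE 0.17). Lead 2 was the highest lead-exposed array for 8 of the 9 TIMP targets. Without it the median was −0.39, with 8 of 9 lower, and without lead 1 it was −0.11. Averaged from the deposited single-probe values, 8 of 9 were lower.

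Cross-linking enzymes had 6 of 9 targets lower, with a median of −0.08, which was −0.04 without control 1 or without lead 2 and −0.13 without control 3. The 2 LOX targets, for lysyl oxidase, overlap on chromosome 10 and differed by −0.15 and −0.41, with adjusted p of 0.829 and 0.758. The 3 LOXL2 targets were all higher, at 0.10, 0.20 and 0.49. All LOX and LOXL2 targets lay within the random-sequence range on every array. A pair of targets with LOXL3 as first homologue name also lists CD163 and other scavenger receptor proteins, which share a domain with LOXL3. The one at chr3:51749437-51749851 read 14.02, 14.52 and 13.33 in controls and 13.35, 14.29 and 12.09 in lead-exposed brains. Lead 3 was lowest by over 1 log2 unit and the groups overlapped, with a difference of −0.71 (SE 0.56). The other gave −0.77 (SE 0.58), and the median of the pair was −0.13 without lead 3 and −1.27 without lead 2.

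The lower differences of matrix targets were shared unequally among the lead-exposed fish, and the controls were uneven too. Control 1 was the highest of the 3 controls for 36.8% of matrix targets, against 26.8% of all targets. It was the lowest of them for 20.6%, against 31.8%. Lead 2 was the highest of the 3 lead arrays for 67 of the 136 matrix targets (49.3%), against 38.5% of all targets, and lead 3 the lowest for 56 (41.2%), against 33.8%. Mean deviations of the fibrillar collagens from their own averages were 0.14, 0.05 and 0.01 in controls and −0.11, 0.11 and −0.20 in lead 1 to 3. Basement membrane targets gave 0.10, 0.12 and 0.01 against −0.21, 0.03 and −0.05, and the TIMPs 0.08, 0.28 and 0.01 against −0.28, 0.14 and −0.23. The hyaluronan lattice gave −0.11, −0.30 and 0.11 against 0.15, −0.06 and 0.21, with signs opposite to these 3 roles on every array but control 3. Without lead 2, 25 of 136 matrix targets were lower at an unadjusted p under 0.05 (18.4%, against 6.8% of all targets) and 4 were higher (2.94%, against 6.31%), and again none passed the adjusted threshold. This count leaves out the fish that differed from the other 2 of its group, and no label sets that fish apart. Among matrix targets the median difference was −0.17 between the 2 arrays whose image names lack a prefix and −0.05 among the 4 that have it.

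**Figure D4:**
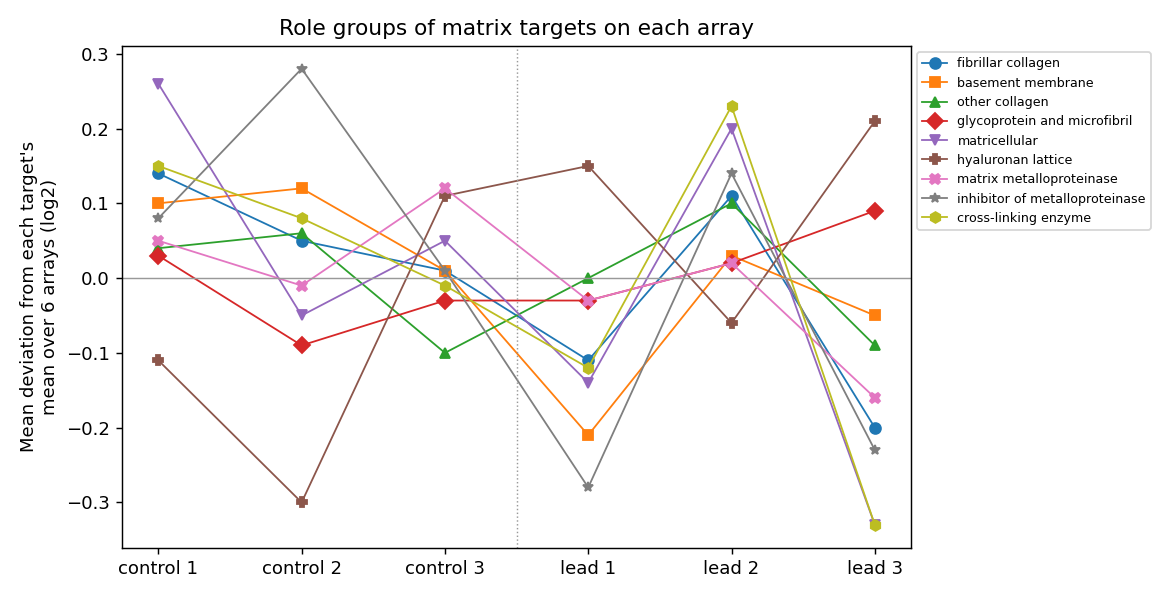
Mean deviation of the targets of each role from their own mean over the 6 arrays (y axis, log2) on each array (x axis). The role of 3 targets is left out. Lead 2 lies above lead 1 and 3 for 7 of the 9 roles, and the hyaluronan lattice is lowest in control 2 and highest in lead 3.

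Genes that act on the same proteins were taken from separate lists, with 1 target per gene, the brightest. Reverse-strand targets were used only where a gene had no other. Of 16 measured genes for folding, hydroxylation and processing of collagen, 10 were lower, with a median of −0.21, and 1 of the 16 was lower at an unadjusted p under 0.05 (against 3.0% of all targets). That gene was p4ha1b, a subunit of prolyl 4-hydroxylase, at 9.79, 9.75 and 9.94 in controls and 9.44, 9.58 and 9.51 in lead-exposed brains (−0.32, SE 0.12, unadjusted p = 0.0361, adjusted p = 0.677). Its values lay within the random-sequence range on every array. The collagen chaperone gene serpinh1b (HSP47) differed by −0.27 (SE 0.31), with a second target at −0.76. A list of 22 genes held integrins, other matrix receptors and intracellular adhesion proteins (ptk2aa, ptk2ab, ilk, pxna, tln1 and vcla). Of these 22, 13 were higher, with a median of 0.05, and none had an unadjusted p under 0.05. Of 8 genes of transforming growth factor beta signalling, which drives collagen synthesis, 4 were higher and 4 lower.

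Of 29 other matrix genes outside the name rule, 17 were lower, with a median of −0.13. Thrombospondin 4 (thbs4b), a calcium-binding matrix protein, read 11.79, 11.79 and 10.51 in controls and 12.82, 12.55 and 12.69 in lead-exposed brains. Every lead array lay above every control, by 1.32 on average (SE 0.35, unadjusted p = 0.00691, adjusted p = 0.590), but its other targets differed by 0.17 and −0.17. The hyaluronan synthase gene has2 gave −0.42 (SE 0.17, unadjusted p = 0.0443, adjusted p = 0.682) and lay above the random-sequence limit on 1 array. The other hyaluronan synthase genes, has1 and has3, gave −0.36 (SE 0.16) and 0.37 (SE 0.35), so the synthases did not share a direction.

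Of 19 measured markers of meningeal and perivascular fibroblasts, 16 were lower in lead-exposed brains, with a median of −0.21, and 8 lay above the random-sequence range on every array. At an unadjusted p under 0.05, 3 of the 19 were lower (against 3.0% of all targets) and none higher. The growth factor receptor gene pdgfra gave −0.64 (SE 0.14, unadjusted p = 0.00217), within the random-sequence range on every array. The sulfate transporter gene slc13a4 read 11.56, 12.09 and 10.86 in controls and 8.97, 11.28 and 9.30 in lead-exposed brains, with lead 2 within the controls (−1.65, SE 0.62), and its second target gave −2.78. The organic anion transporter gene slc22a6l gave −1.39 (SE 0.31), also within that range on every array. Their adjusted p-values ranged from 0.568 to 0.674, and mean deviations of the list were 0.16, 0.31 and −0.04 in controls and −0.26, −0.01 and −0.17 in lead-exposed brains. Fibroblast markers and fibrillar collagens both had their lowest means in lead 1 and 3, as did astroglial and microglial markers. The fibroblast means lean on slc13a4 and slc22a6l, which had the largest differences of that list. The microglial mean was only −0.04 in lead 1, against −1.04 in lead 3. The part of such cells in the matrix differences was not tested.

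Other cell types gave mixed values. Of 13 astroglial markers, 12 were lower (median −0.28). Their mean deviations were 0.29, 0.14 and 0.15 in controls and −0.33, 0.23 and −0.49 in lead-exposed brains. These means lean on fabp7b, which differed by −2.04 (SE 1.23), with an SD of 2.69 among the lead-exposed fish. The other astroglial markers lay between −0.63 (slc6a9) and 0.02 (gfap). Of 12 microglial and macrophage markers, 10 were lower (median −0.39), and their mean deviation was −1.04 in lead 3. Endothelial markers were higher for 10 of 14 (median 0.22) and pericyte and smooth muscle markers for 5 of 7 (median 0.16), but both lists held genes that went the other way. The lymphatic and venous receptor gene flt4, above the random-sequence range on every array, gave −0.81 (SE 0.14, unadjusted p = 0.000844, adjusted p = 0.568), and every lead array lay below every control. In all, 3 endothelial markers were higher and 2 lower at an unadjusted p under 0.05 (4.19% and 3.0% of all targets). The pericyte genes rgs5a and kcnj8 were lower at that level, at −0.71 (SE 0.17) and −0.54 (SE 0.20). The kcnj8 target lay within the random-sequence range on every array, and rgs5b, above it on every array, gave 0.32 (SE 0.29). Skeletal muscle, cartilage and bone markers, for tissue that could adhere to a dissected brain, had medians of 0.03, −0.03 and −0.02. At an unadjusted p under 0.05, 2 of 21 muscle markers (mybpc1 at −0.70, cav3 at −0.66) and 1 of 6 bone markers (sp7 at −0.74) were lower. In cartilage 1 of 9 was higher (ihha at 0.39), against 3.0% lower and 4.19% higher of all targets. Each of these lay within the random-sequence range on every array. Skin markers had a median of 0.21, with krt97 at 11.18, 11.34 and 11.30 in controls and 14.18, 11.81 and 12.68 in lead-exposed brains, highest in lead 1. At the same level, 2 of 14 skin markers were higher (against 4.19% of all targets). Among astroglial markers 1 of 13 was lower and among microglial ones 2 of 12 (against 3.0%). Blood markers had a median of 0.00, oligodendrocyte markers 0.08 and neuron markers −0.07. No marker had an adjusted p under 0.05, and the part of these cell types in the matrix values was not tested.

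The 16 members with no matrix gene name were 7 higher and 9 lower, with a median of −0.08. None had an unadjusted p under 0.05. They differed by −0.55 at a COL4A3BP target to 0.83 at a TNRC15 target whose values were 11.54, 11.27 and 12.88 in controls and 12.49, 12.00 and 13.71 in lead-exposed brains. Lead 3 and control 3 were the highest of their groups there, and the groups overlapped.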

How the data were processed

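The deposited array tables give 1 linear intensity per target, made with RMA (background correction, quantile normalization and a summary over the probes of a target), per the submitters' processing notes; its version is not given in the sources used here. The deposited series value table holds intensities of single probes and was used for probe counts, random-sequence probes and an alternative. The authors' deposited list gives folds, log2 ratios and p-values from a test that is not given in the sources used here. Coordinates are those deposited with the arrays, in part named Zv7. The 2 ncan targets have like spans at shifted places on chromosome 22, so sources of targets may not share an assembly.

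From these, log2 intensities were compared with lmFit and eBayes of limma 3.58.1 in R 4.3.3, 2-sided, over 38489 targets and 6 arrays, without covariates or a filter, and p-values were adjusted by Benjamini-Hochberg. The fit was tested on simulated data. With 6 arrays, their number limits precision. Targets were named by zebrafish symbol (67 members) or homologue (85). Of the symbols, 36 were current in a RefSeq gene table, 17 were synonyms and 14 were kept. Of the 136 matrix targets, 128 had 3 probes and 8 had 2, 6 lay on the reverse strand of a transcript, and 6 also bore names of other gene families. Such targets and targets of close copies may read more than 1 gene.

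Named were members at an unadjusted p under 0.05, the brightest target of most roles, fixed well-known matrix genes, and some of the listed genes at an unadjusted p under 0.05. Further targets of the same roles were named after their values were seen. Members, roles and lists were chosen with earlier results of these data known. Alternatives were array weights, other normalizations, filters on dim targets, blocks, another prior, 1 target per gene, the series value table and leaving out each array. The main fit did not pair fish by replicate number, as no label says that the numbers pair them. Correlations of deviations between same-numbered fish (−0.15, 0.14 and 0.26) cannot decide this.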

Additional observations from a re-analysis of the deposited data

How the results depend on the processing

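The count past the adjusted threshold was 0 in every alternative run, and the median difference of the 152 members stayed below 0 in each. The following alternatives moved the counts of members higher (2) and lower (5) at an unadjusted p under 0.05, the count without overlap (13) or the median (−0.09) beyond the limits set. The cause of these moves was not tested. Array weights gave 6 higher and 23 lower (3.95% and 15.1%, against 8.28% and 7.14% of all targets in that fit). Centring on random-sequence probes gave 2 lower and 8 without overlap (1.32% and 5.26%, against 2.13% and 11.4%). Leaving out the dimmer 50% of targets left 61 members, with 0 higher, 1 lower and 3 without overlap (0.0%, 1.64% and 4.92%, against 2.31%, 1.54% and 8.8%). Leaving out targets within the random-sequence range left 72 members, with 0, 2 and 3 (0.0%, 2.78% and 4.17%, against 2.53%, 1.65% and 9.16%). The FBN3 and COL22A1-named targets, higher in the main fit, were in neither of these fits. With 1 target for each of the 73 names, 2 were lower and 3 did not overlap (against 3.0% and 13.1% of all targets in the main fit). A block for the image name prefix gave 2 lower (1.32%, against 2.64%). Chosen after the data were seen, the 4 arrays with that prefix gave 4 higher and 0 lower (2.63% and 0.0%, against 1.66% and 1.47%), and the 2 without it a median of −0.17. Also chosen then, leaving out the 11 members also named for other genes gave 1 higher (against 4.19% of all targets in the main fit). Leaving out 1 array at a time gave 2 to 5 higher, 1 to 26 lower and 22 to 56 without overlap, with medians from −0.10 to −0.05. The 26 lower and 56 without overlap came without lead 2 (17.1% and 36.8%, against 6.8% and 33.4% of all targets), the 1 lower without lead 1 (0.658%, against 2.51%) and the 22 without control 1 (14.5%, against 19.5%). The replicate number as a block gave 4 higher and 8 lower (2.63% and 5.26%, against 4.41% and 3.41%). Deviations of same-numbered fish correlated at −0.15, 0.14 and 0.26, so the block says nothing of pairing. At an unadjusted p under 0.05, FBN3 and the COL22A1-named target held in 14 of 14 alternatives, mmp14a in 13 of 14, COL18A1 in 9 of 15, timp2 in 6 of 16, and the COL5A1 and MMP14 targets in 5 of 14 each, with no change of sign. For 69 of the 136 matrix targets no array exceeded the random-sequence limit, so signal over background limits what their values show.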
